A study of Mus musculus with 8 samples.

Results

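The 58 genes described here encode proteins of the mitochondrial ribosome, 35 of the large subunit (symbols beginning with Mrpl) and 23 of the small subunit (symbols beginning with Mrps). They were taken from 14995 genes measured in mouse 2-cell embryos on a biotin-labelled expression array. A gene entered when its symbol began with Mrpl or Mrps and a number, was not a pseudogene, and stood alone on a probeset, the group of array probes summarised to 1 value. Where a gene had several such probesets, the brightest over the 8 arrays was used. RefSeq lists 78 protein-coding genes with such symbols. Of these, 8 were measured only on probesets that carry several symbols and stayed out.

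The mitochondrial ribosome translates the few proteins encoded by mitochondrial DNA, each a subunit of a respiratory chain complex or of ATP synthase. Its own proteins are encoded in the nucleus, made in the cytosol and imported. Some descend from bacterial ribosomal proteins and others are found only in mitochondria. In the early mouse embryo mitochondria are inherited from the oocyte, and the 2-cell stage is when transcription from the embryo's genome becomes extensive.

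The series addresses offspring of male mice in which histone methylation was disturbed during sperm formation by a KDM1A transgene (KDM1A removes methyl groups from lysine 4 of histone H3). Each array was hybridised with RNA of 1 pool of 2-cell embryos. C57BL/6 females in every group had received eCG and hCG at 5 IU, and pools held 26 embryos on average. Oviducts were flushed 46 to 48 hours after hCG. The sires were C57BL/6 males (3 arrays), KDM1A transgenic males (KDM1A TG, 3 arrays) or nontransgenic males (nonTG, 2 arrays). The labels name neither the promoter of the transgene, the age and number of the males, nor the genotype of the embryos. The number 3 that follows TG and nonTG in the titles is not explained. No probeset carried Kdm1a as its only symbol, so the group labels were not checked by that gene. The labels do not tell whether separate males sired the pools within a group, so p-values here cover only the variation among these pools.

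Values were log2 intensities, and a difference of 1 is a 2-fold difference. All 58 genes exceeded a mean of 2.07, the 30th percentile of all probesets, so the filter removed none of them. A gene was called when its p-value from limma, adjusted by the Benjamini-Hochberg method over the 11444 genes tested, was below 0.05. Pairwise correlations between arrays ran from 0.889 to 0.967. The spread of values differed: the interquartile range was 2.38 in KDM1A TG array 1 and 2.60 in KDM1A TG array 3, and 1.87 to 2.09 in the other 6. Genes of the oocyte and of the 2-cell stage were present. The mean over the 15 maternal oocyte genes measured, of which 14 passed the filter, was 3.78 to 4.81. Markers of the oviduct epithelium, through which the embryos were flushed, were also present, and all 13 measured passed the filter.

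Promoters in RefSeq (GRCm38.p6, 250 bases before to 50 bases after a transcription start) were available for 50 of the 58 genes, as 56 promoters. Mrpl13, Mrpl15, Mrpl19, Mrpl38, Mrpl54, Mrps28, Mrps34 and Mrps35 had no entry in that table. The 50 were searched on both strands for the letters of factors known to act on nuclear genes for mitochondrial proteins: GCATGCGC for NRF1, CCGGAAG for ETS factors such as GABP, and AAGATGGCG for YY1. The 4 stretches below, each the 150 bases before the start, show a promoter with each kind of letters and 1 with none. Of the 58 genes, Mrpl36 had the smallest p-value in KDM1A TG against C57BL/6 and Mrpl46 in KDM1A TG against nonTG. Mrpl32 and Mrpl34 were chosen for their letters, after the values had been seen. Capitals mark matches to the searched letters.
Mrpl36 (YY1 letters on the reverse strand, chr13:73330859-73331008, plus strand): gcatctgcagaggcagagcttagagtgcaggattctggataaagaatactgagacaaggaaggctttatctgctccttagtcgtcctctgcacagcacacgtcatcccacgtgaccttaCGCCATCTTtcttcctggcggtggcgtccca
Mrpl32 (NRF1 letters, chr13:14613038-14613187, minus strand): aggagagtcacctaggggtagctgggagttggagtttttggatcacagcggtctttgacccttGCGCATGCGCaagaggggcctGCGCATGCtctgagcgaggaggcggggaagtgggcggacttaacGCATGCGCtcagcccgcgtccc
Mrpl34 (ETS letters, chr8:71464776-71464925, plus strand): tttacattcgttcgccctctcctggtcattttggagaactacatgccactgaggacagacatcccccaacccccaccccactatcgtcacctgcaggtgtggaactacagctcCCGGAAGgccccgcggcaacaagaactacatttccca
Mrpl46 (none of the 3, chr7:78783090-78783239, minus strand): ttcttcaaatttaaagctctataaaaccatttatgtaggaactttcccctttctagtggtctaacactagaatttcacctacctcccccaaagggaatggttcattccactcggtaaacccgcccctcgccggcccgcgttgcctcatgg

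The 3 motifs were more frequent in these promoters than in promoters at large. NRF1 letters stood in 6 of 56 (10.7%), against 4.41% of the 10825 promoters of all genes tested and 2.71% of all 32851 promoters. ETS letters stood in 17 of 56 (30.4%), against 14.2% and 8.86%. YY1 letters stood in 6 of 56 (10.7%), against 2.63% and 1.40%. The median GC content was 58.2% in the members' promoters and 59.0% in those of all genes tested. Small-subunit promoters held ETS letters in 9 of 21 and NRF1 letters in 1, and large-subunit promoters held them in 8 and 5 of 35. These shares describe letters and were not tested. The promoter window of Mrpl46 overlapped that of Mrps11, another gene of this family transcribed from the opposite strand, by 141 bases. Mrps11 itself was not among the 58. The members' log2 difference between KDM1A TG and C57BL/6 is given beside the motifs as a description. Its median was 0.62 in the 6 genes with NRF1 letters and 0.48 in the 44 without, 0.54 in 17 and 0.49 in 33 for ETS, and 0.51 in 6 and 0.50 in 44 for YY1.

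The family as a whole was brightest in KDM1A TG array 1 and dimmest in C57BL/6 array 3. The mean over the 58 genes was 4.32, 4.57 and 4.14 in the C57BL/6 arrays, 5.12, 4.57 and 4.80 for KDM1A TG sires, and 4.63 and 4.57 for nonTG sires. By group this was 4.34 ± 0.21 (SD, n = 3), 4.83 ± 0.28 (SD, n = 3) and 4.60 ± 0.040 (SD, n = 2). The lowest KDM1A TG array and the highest C57BL/6 array were level at 4.57, while both nonTG arrays were at or above the C57BL/6 range. Of the 58 genes, 41 had their highest value in KDM1A TG array 1, where 15.9% of all genes had theirs. C57BL/6 array 3 held the lowest value of 31 members, beside 19.2% of all genes. KDM1A TG array 3 held the highest value of 26.1% of all genes but of only 1 member, Mrpl11.

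**Figure D1:**
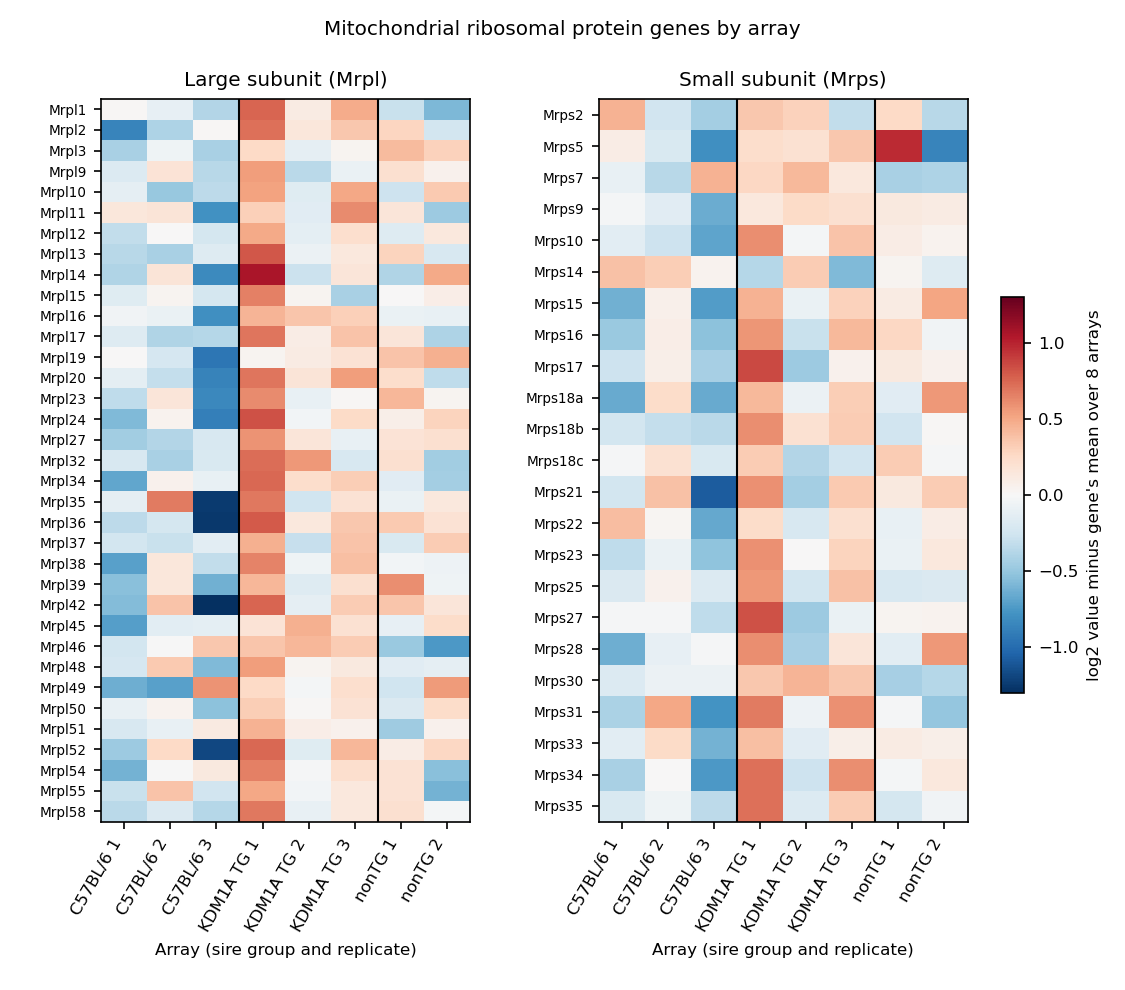
Log2 value of each of the 58 genes minus that gene's mean over the 8 arrays, by array, with the 35 large-subunit genes on the left and the 23 small-subunit genes on the right; lines separate the sire groups. The column of KDM1A TG array 1 is red for nearly all genes and that of C57BL/6 array 3 is mostly blue.

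The standing of the members among the other genes of an array separated the groups less. The median percentile rank of the 58 among all genes was 74.4, 72.7 and 68.3 in C57BL/6, 78.6, 71.6 and 70.2 in KDM1A TG, and 69.5 and 72.6 in nonTG. These ranges overlapped between all 3 groups. The mean of the members minus the mean of all genes tested was 0.63, 0.85 and 0.45 in C57BL/6, 1.24, 0.81 and 0.84 in KDM1A TG, and 0.88 and 0.86 in nonTG. On this measure also, the KDM1A TG and C57BL/6 arrays overlapped.

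Markers of oviduct epithelium followed the members' levels only in part. Their mean log2 value was 4.65, 5.27 and 4.67 in C57BL/6, 5.59, 4.86 and 5.71 in KDM1A TG, and 5.36 and 5.18 in nonTG. Summed on the linear scale, the 13 markers ran from 397 to 625 in C57BL/6, 461 to 824 in KDM1A TG and 624 to 693 in nonTG. On both the marker mean and the members' mean, C57BL/6 array 2 was the highest of its group and KDM1A TG array 2 the lowest of its group. The highest marker mean was in KDM1A TG array 3, and the highest members' mean in KDM1A TG array 1. The lowest marker mean was in C57BL/6 array 1, and the lowest members' mean in C57BL/6 array 3. Stroma and smooth muscle markers (12 of 12 passed) ran from 3.73 to 4.75, 4.85 to 6.37 and 4.12 to 5.69 in that group order. Their highest mean was in KDM1A TG array 3. Cumulus and granulosa markers (6 of 6 passed) were at 3.38 in C57BL/6 array 3 and 3.16 in KDM1A TG array 3. They were at 2.40 to 2.63 elsewhere. In C57BL/6 array 3, Cyp11a1 read 5.53 and Star 4.50, but Has2 and Ptgs2 were not highest there. Blood markers (5 of 5 passed) were highest in C57BL/6 array 1 (4.95), and at or below 4.11 elsewhere. The part of these lists in the members' levels was not tested. Maternal oocyte genes were at 4.77, 3.99 and 4.75 in C57BL/6, 4.14, 4.81 and 4.20 in KDM1A TG, and 3.78 and 4.25 in nonTG, so that KDM1A TG array 2 was near C57BL/6 arrays 1 and 3. Each of the 13 measured epithelial markers passed the filter. Ovgp1, Cldn4 and Ccdc39 were also on the marker list but were not among the genes measured. In RNA of a pool, a larger share of cells of a type and more RNA per cell cannot be told apart.

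**Figure D2:**
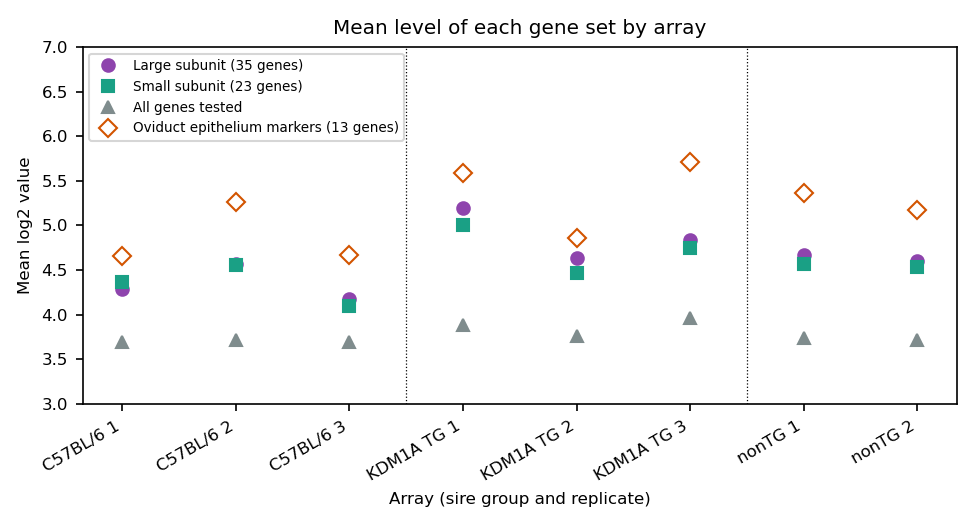
Mean log2 value of the 35 large-subunit genes, the 23 small-subunit genes, all genes tested and the 13 oviduct epithelium markers in each array. Both subunits are highest in KDM1A TG array 1 (5.19 and 5.01), and the markers are high in KDM1A TG arrays 1 and 3 and low in C57BL/6 arrays 1 and 3.

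The subunits did not keep the same balance in every array. The mean of the large-subunit genes minus that of the small-subunit genes was -0.078, 0.014 and 0.080 in C57BL/6, 0.18, 0.17 and 0.095 in KDM1A TG, and 0.10 and 0.069 in nonTG. The size of this difference within 1 array has no meaning, since probesets differ in brightness, but the same probesets are compared across arrays. By group it was 0.0055 ± 0.079 (SD, n = 3), 0.15 ± 0.047 (SD, n = 3) and 0.086 ± 0.025 (SD, n = 2). The 3 KDM1A TG arrays lay above the 3 C57BL/6 arrays, with a narrow gap between them. After quantile normalization the KDM1A TG arrays ran from 0.059 to 0.17 and the C57BL/6 arrays from -0.076 to 0.092, and the groups overlapped. They also overlapped after cyclic loess. Averaging the probesets of a gene gave group means of 0.078, 0.20 and 0.17, and the filter at the 50th percentile, which kept 56 members, gave -0.18, -0.085 and -0.12. Mrps30 and Mrps18a carry small-subunit symbols but sit in the large subunit in structures of the mammalian ribosome. Counted there, the differences were -0.046, 0.087 and 0.15, then 0.23, 0.26 and 0.17, then 0.12 and 0.15.

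KDM1A TG and C57BL/6 sires differ in the transgene and in the line of the males, and their comparison cannot tell these apart. The nonTG sires are compared with each of these groups further below. None of the 58 genes was called, where limma called 0.725% of all genes tested. At an unadjusted p under 0.05, 12 of 58 were higher and 0 lower, beside 12.1% higher and 2.10% lower of all genes. Of these 12, 9 were large-subunit and 3 small-subunit genes. The log2 difference was above 0 for 56 of 58, all 35 of the large and 21 of the 23 of the small subunit, beside 64.9% of all genes. The ranges of the 2 groups were separate for 18 members, all higher in KDM1A TG, beside 14.5% of all genes higher and 5.34% lower. The median difference was 0.50 over the members and 0.18 over all genes, which leaves 0.31 (large subunit 0.54, small subunit 0.47 before this subtraction).

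This difference leaned on single arrays. The median relative to all genes was 0.18 without KDM1A TG array 1, 0.22 without C57BL/6 array 3, and 0.41 without C57BL/6 array 2 and without KDM1A TG array 2. The count of members higher at an unadjusted p under 0.05 was 2 without KDM1A TG array 1, beside 6.62% of all genes. It was 3 without C57BL/6 array 3 (all genes 8.38%), 6 without KDM1A TG array 3 (4.61%) and 8 without C57BL/6 array 1 (7.22%). It was 24 without KDM1A TG array 2 (19.2%) and 21 without C57BL/6 array 2 (13.7%). Without KDM1A TG array 2, 1 more member, Mrps14, was lower (-0.72, unadjusted p = 0.0366 in limma). Quantile normalization and cyclic loess each left 5 higher, beside 5.64% and 5.35% of all genes. The relative medians were then 0.18 and 0.16. With the oviduct marker mean of each array as a covariate, the relative median was 0.10. Of the differences, 45 of 58 were then above 0, beside 59.7% of all genes. At an unadjusted p under 0.05, 1 member was higher, beside 4.46% of all genes. The array weights of limma called 19 members, beside 14.8% of all genes. They gave KDM1A TG array 1 a weight of 2.49 and KDM1A TG array 2 one of 0.53. C57BL/6 array 1 had a weight of 2.02, and C57BL/6 arrays 2 and 3 had 0.72 and 0.75.

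**Figure D3:**
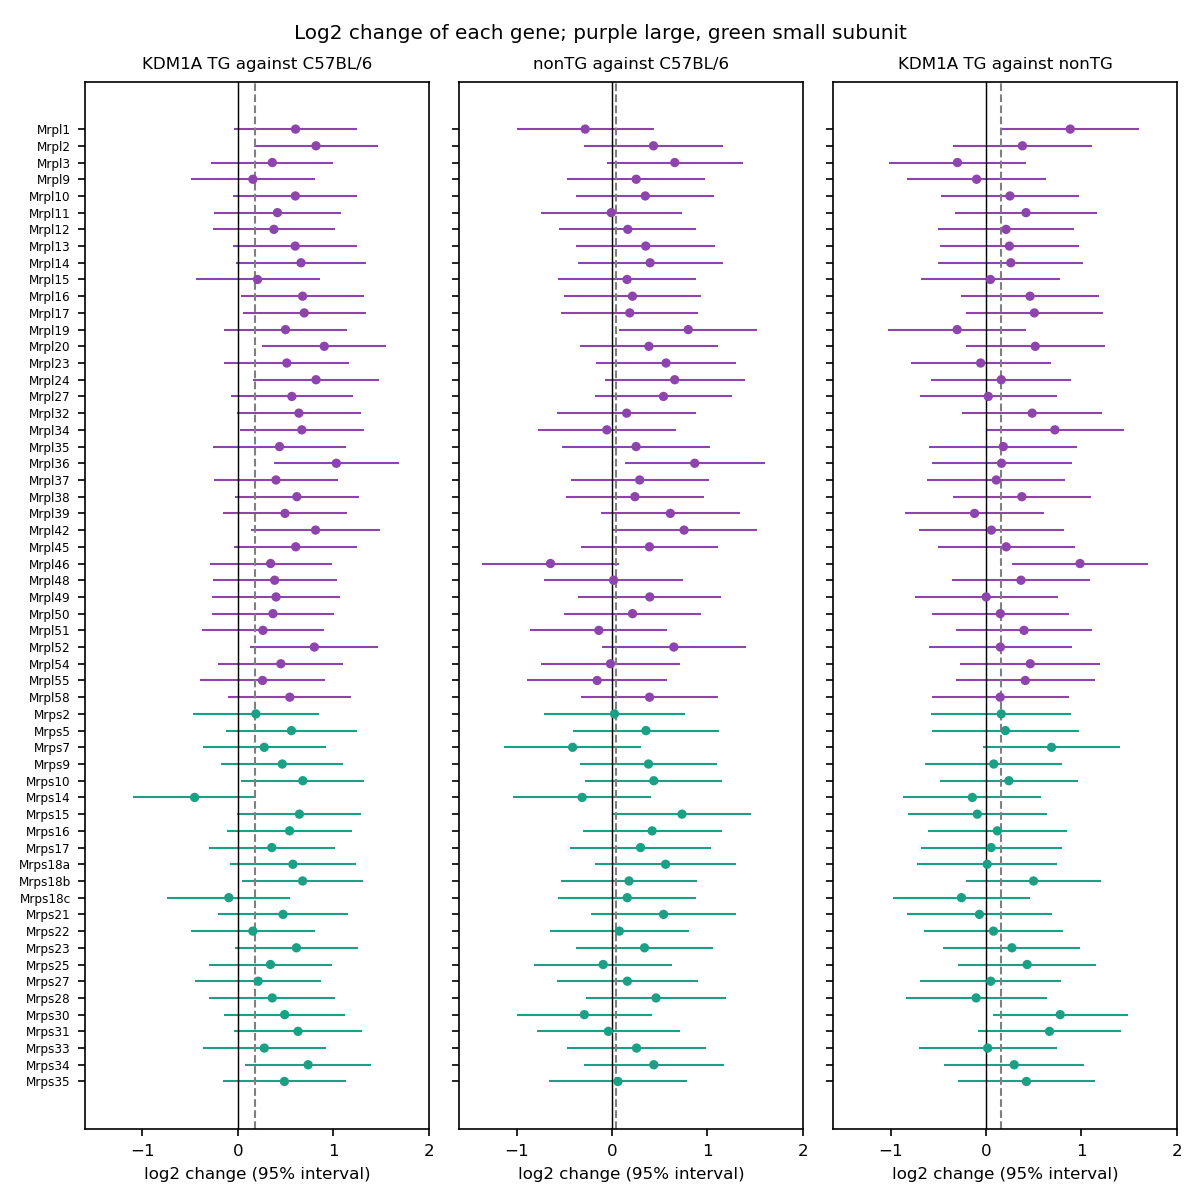
Log2 difference of each of the 58 genes with its 95% interval from limma in the 3 comparisons, large subunit in purple and small subunit in green; the dashed line is the median of all genes tested. In KDM1A TG against C57BL/6, 56 of 58 points lie above 0, and most intervals include 0.

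Among the large-subunit genes with a bacterial counterpart, Mrpl36 had the smallest p. Mrpl36 encodes a very small protein that binds ribosomal RNA. Its log2 values were 3.93, 4.04 and 3.01 in C57BL/6, 5.06, 4.40 and 4.62 in KDM1A TG, and 4.60 and 4.45 in nonTG. On this brighter probeset every KDM1A TG and nonTG array was above every C57BL/6 array, of which array 3 was the lowest. The difference between KDM1A TG and C57BL/6 was 1.03 (SE 0.33, 2.05-fold, 95% interval 0.38 to 1.69, limma with Benjamini-Hochberg adjustment, adjusted p = 0.122). Its second, less bright probeset gave 0.66. Without C57BL/6 array 2, Mrpl36 on its brighter probeset (1.22, adjusted p = 0.0480) and Mrpl42 (1.25, adjusted p = 0.0439) passed. In that setting 2.22% of all genes were called. Without C57BL/6 array 3 they were at 0.71 (adjusted p = 0.457) and 0.42 (adjusted p = 0.626).

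Mrpl20, whose bacterial counterpart binds ribosomal RNA early in assembly of the large subunit, was next. It read 2.92, 2.74 and 2.18 in C57BL/6, 3.74, 3.22 and 3.60 in KDM1A TG, and 3.28 and 2.72 in nonTG. KDM1A TG and C57BL/6 arrays did not overlap, and the difference was 0.91 (SE 0.33, adjusted p = 0.192). Mrpl2, which lies beside the peptidyl transferase centre where peptide bonds form, read 2.75, 3.20 and 3.61 in C57BL/6 and 4.31, 3.75 and 3.96 in KDM1A TG (difference 0.82, adjusted p = 0.246). Those groups were also separate, although the lowest KDM1A TG array was only slightly above the highest C57BL/6 array.

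Other large-subunit genes had differences of like size with overlapping arrays. Mrpl42, a protein found only in mitochondrial ribosomes, read 6.80, 7.74 and 6.08 in C57BL/6 and 8.12, 7.24 and 7.69 in KDM1A TG (0.81, adjusted p = 0.266). Mrpl52, also without a bacterial counterpart, read 6.99, 7.72 and 6.27 in C57BL/6 and 8.20, 7.30 and 7.88 in KDM1A TG (0.80, adjusted p = 0.268). In both genes C57BL/6 array 2 was above KDM1A TG array 2. With single arrays left out Mrpl52 ran from 0.44 (without C57BL/6 array 3) to 1.16 (without C57BL/6 array 2). They were among the 5 members with the widest range over the 8 arrays, with Mrpl36 (2.05), Mrpl35 (1.94) and Mrpl14 (1.88). For Mrpl35 the difference was 0.44 and turned to -0.073 without C57BL/6 array 3. For Mrpl14 it was 0.66, and 0.29 without KDM1A TG array 1.

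Proteins that line the mouth of the exit tunnel, where the new chain leaves towards the inner membrane, were Mrpl23, Mrpl24 and Mrpl45. Their differences between KDM1A TG and C57BL/6 were 0.51, 0.82 and 0.61. That of Mrpl23 was 0.26 without C57BL/6 array 3 and 0.29 without KDM1A TG array 1. Mrpl24 read 5.85, 6.48 and 5.54 in C57BL/6 and 7.26, 6.39 and 6.68 in KDM1A TG, and these overlapped (adjusted p = 0.249). Mrpl45, which tethers the ribosome to the membrane, read 2.89, 3.47 and 3.48 against 3.79, 4.07 and 3.80, with no overlap. The stalk list, whose proteins Mrpl10, Mrpl11 and Mrpl12 recruit translation factors and which also held Mrpl54, had differences of 0.60, 0.41, 0.38 and 0.45. In all 4 genes the arrays of the groups overlapped. With single arrays left out, Mrpl11 was as low as 0.10 (without C57BL/6 array 3), Mrpl12 as low as 0.23 (without KDM1A TG array 1) and Mrpl54 as low as 0.23 (without C57BL/6 array 1).

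In the small subunit, Mrps34, Mrps10 and Mrps18b had unadjusted p-values under 0.05. The rule for naming genes did not select them, and they were picked with their values in view. Mrps34, a mitochondria-specific protein, read 3.68, 4.11 and 3.36 in C57BL/6 and 4.81, 3.83 and 4.71 in KDM1A TG (0.74, adjusted p = 0.301). Mrps10 read 2.78, 2.65 and 2.23 in C57BL/6 and 3.53, 2.89 and 3.29 in KDM1A TG (0.68, adjusted p = 0.330). Mrps18b read 5.43, 5.36 and 5.31 against 6.27, 5.86 and 6.00 (0.68, adjusted p = 0.327). The groups overlapped for Mrps34 and not for Mrps10 and Mrps18b. A second probeset of Mrps18b gave 0.69.

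Mrps14 and Mrps18c were the members with a difference below 0. Mrps14, a protein of the head of the small subunit, read 2.53, 2.47 and 2.20 in C57BL/6, 1.78, 2.48 and 1.58 in KDM1A TG, and 2.18 and 1.99 in nonTG (KDM1A TG against C57BL/6 -0.45, SE 0.33, adjusted p = 0.503). KDM1A TG arrays 1 and 3 were below all others, and array 2 lay within the C57BL/6 range. The difference was -0.27 without KDM1A TG array 3. Its level is close to the filter. Mrps18c, 1 of 3 related genes of the Mrps18 kind, differed by -0.095 on the brighter probeset and -0.48 on the less bright, whose mean was 2.11. The related Mrps18a differed by 0.58. Mrps18c also had the narrowest range of the family, 0.71, followed by Mrpl37 at 0.77 and Mrps25 at 0.81.

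Mrps16, a protein of the body of the small subunit, gave different sizes on its pair of probesets. It too was picked after its values had been seen. The brighter probeset read 5.88, 6.45 and 5.83 in C57BL/6, 6.93, 6.08 and 6.78 in KDM1A TG, and 6.63 and 6.32 in nonTG (0.54, adjusted p = 0.438). The less bright read 3.92, 5.16 and 3.50, then 6.59, 4.79 and 5.92, then 5.72 and 5.44. The less bright was fitted among 12033 single-symbol probesets, those above the filter and those of members with 2 probesets. It gave 1.57 (SE 0.37, limma with Benjamini-Hochberg adjustment, adjusted p = 0.0234). C57BL/6 array 2 stood above KDM1A TG array 2 on both probesets. The adjusted p was 0.159 without C57BL/6 array 1, 0.208 without C57BL/6 array 3, 0.250 without KDM1A TG array 1 and 0.339 without KDM1A TG array 3. The difference itself ran from 1.16 to 2.06 over the arrays left out in turn. Between nonTG and C57BL/6 this probeset differed by 1.38 (adjusted p = 0.165, and 0.0134 without C57BL/6 array 2).

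The comparison of nonTG with C57BL/6 sires sets the transgenic line's nontransgenic males against the inbred strain. It shares the C57BL/6 arrays with the comparison above, so both carry the low values of C57BL/6 array 3. None of the 58 genes was called, where limma called 0.131% of genes. At an unadjusted p under 0.05, 3 were higher (Mrpl36, Mrpl19 and Mrps15) and 0 lower, beside 4.61% and 3.62% of all genes. The difference was above 0 for 46 of 58, beside 53.2% of all genes. Arrays did not overlap for 12 members higher and 4 lower in nonTG, beside 15.4% and 9.41% of all genes. The median was 0.27 over members and 0.038 over all genes, or 0.24 relative to all genes, and without C57BL/6 array 3 it was 0.11. The count higher at an unadjusted p under 0.05 was 10 without C57BL/6 array 2, beside 6.65% of all genes. It was 1 without C57BL/6 array 3, beside 2.82% of all genes. Without nonTG array 1 the relative median was 0.22.

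Mrpl36 differed by 0.87 between nonTG and C57BL/6 (SE 0.37, adjusted p = 0.473), and by 0.54 without C57BL/6 array 3. Mrpl19, a protein at the interface of the subunits, read 3.79, 3.57 and 2.85 in C57BL/6, 3.83, 3.90 and 3.98 in KDM1A TG, and 4.16 and 4.25 in nonTG. The groups followed each other without overlap, and the nonTG difference was 0.80 (SE 0.36, adjusted p = 0.546), or 0.52 without C57BL/6 array 3. Mrps15 read 4.72, 5.41 and 4.62 in C57BL/6, 5.79, 5.25 and 5.64 in KDM1A TG, and 5.45 and 5.85 in nonTG (0.74, adjusted p = 0.599). Mrpl3, which reaches to the peptidyl transferase centre, read 3.27, 3.62 and 3.26, then 3.95, 3.56 and 3.73, then 4.10 and 3.99 (nonTG against C57BL/6 0.66, adjusted p = 0.643). Its nonTG arrays were above all others.

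The 4 members whose nonTG arrays lay below every C57BL/6 array were Mrpl46, Mrps7, Mrps14 and Mrps30. Mrpl46, a large-subunit protein without a bacterial counterpart, read 4.35, 4.58 and 4.94 in C57BL/6, 4.96, 5.02 and 4.93 in KDM1A TG, and 4.11 and 3.85 in nonTG. The nonTG difference from C57BL/6 was -0.64 (SE 0.36, adjusted p = 0.658). Mrps30 read 4.48, 4.58 and 4.58, then 5.01, 5.10 and 5.01, then 4.23 and 4.29, with narrow spread and no overlap between any pair of groups. Its difference from C57BL/6 was -0.29 in nonTG and 0.49 in KDM1A TG (adjusted p = 0.824 and 0.467). Mrps7, which starts assembly of the head of the small subunit in bacteria, read 4.40, 4.13 and 4.94, then 4.76, 4.91 and 4.63, then 4.07 and 4.08.

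**Figure D4:**
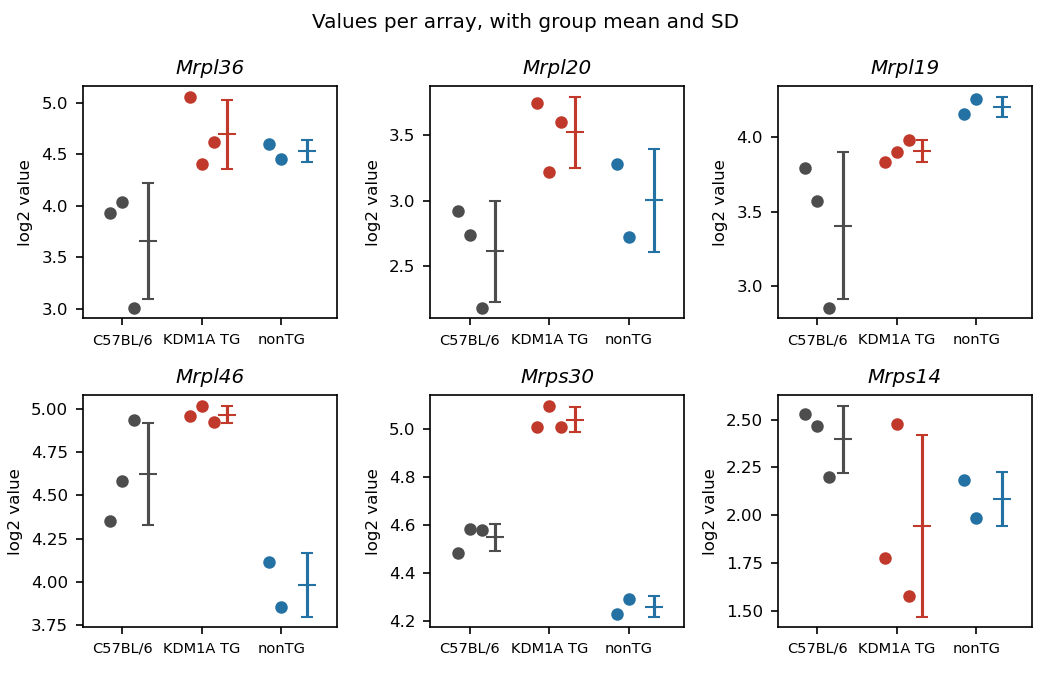
Log2 value of 6 members in each array, with the mean and SD of each sire group beside the points; each panel has its own axis. Mrps30 and Mrpl19 show groups without overlap in a different order, and C57BL/6 array 3 is the lowest point for Mrpl36, Mrpl20 and Mrpl19.

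KDM1A TG against nonTG sires compares transgenic with nontransgenic males. None of the 58 genes was called, where limma called 0.0437% of genes. At an unadjusted p under 0.05, 3 members were higher (Mrpl46, Mrpl1 and Mrps30) and 0 lower, beside 4.97% and 1.43% of all genes. The difference was above 0 for 48 of 58, beside 65.4% of all genes. The median was 0.19 over the members and 0.16 over all genes, or 0.036 relative to all genes. It was 0.056 relative to all genes in the large subunit and -0.037 in the small. Without KDM1A TG array 1 the members' relative median was -0.093, with 30 of 58 above 0, beside 62.9% of all genes. Without KDM1A TG array 2 the relative median was 0.15. After quantile normalization 32 of 58 were above 0, beside 55.7% of all genes. At an unadjusted p under 0.05, 1 member was higher without KDM1A TG array 1, beside 3.69% of all genes. Without nonTG array 2 the relative median was 0.10. Arrays did not overlap for 9 members higher and 2 lower in KDM1A TG, beside 16.0% and 6.38% of all genes.

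Mrpl46 had the largest difference of this comparison, 0.99 (SE 0.36, 1.98-fold, 95% interval 0.27 to 1.70, limma with Benjamini-Hochberg adjustment, adjusted p = 0.597). Mrpl1, the protein of the mobile stalk that releases spent tRNA, read 4.03, 3.91 and 3.63 in C57BL/6, 4.77, 4.12 and 4.49 in KDM1A TG, and 3.72 and 3.43 in nonTG. KDM1A TG arrays were above both other groups, and the difference from nonTG was 0.88 (SE 0.36, adjusted p = 0.750). Mrps30 differed by 0.78 (adjusted p = 0.772). Mrpl34 read 4.50, 5.24 and 5.09, then 5.93, 5.42 and 5.50, then 5.04 and 4.75 (0.72, adjusted p = 0.775). Mrps7 differed by 0.69. The lower 2 were Mrpl19 and Mrpl3, each at -0.30 (adjusted p = 0.882 for both).

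**Figure D5:**
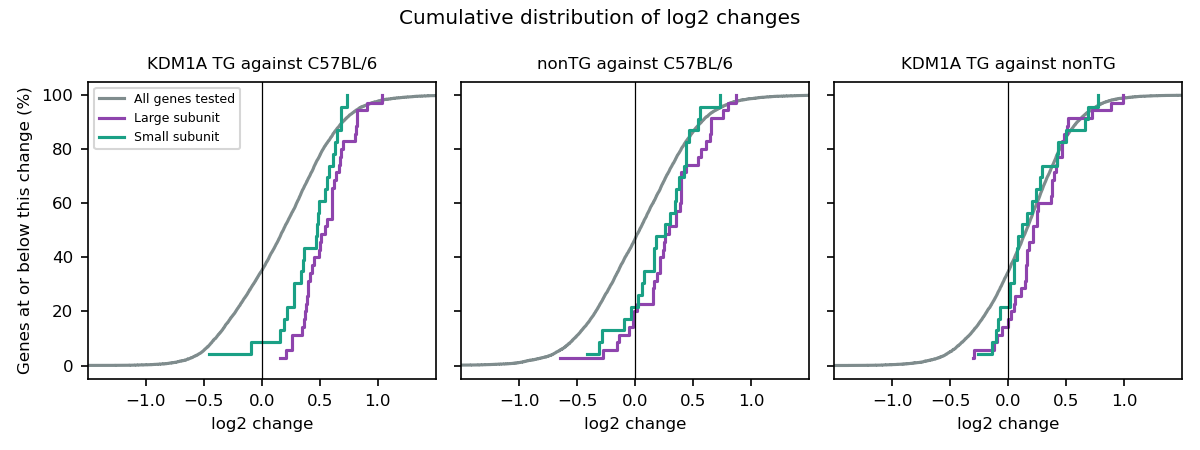
Cumulative share of genes at or below each log2 difference, for all genes tested and for the large- and small-subunit genes, in the 3 comparisons. The subunit curves lie to the right of the curve of all genes in both comparisons with C57BL/6 (medians 0.54 and 0.47 against 0.18, and 0.29 and 0.26 against 0.038) and close to it in KDM1A TG against nonTG (0.21 and 0.12 against 0.16).

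Members with and without a bacterial counterpart were compared by their medians, with no test. In KDM1A TG against C57BL/6 the median was 0.53 over the 34 with a bacterial counterpart and 0.49 over the 24 without. In nonTG against C57BL/6 it was 0.35 and 0.23. In KDM1A TG against nonTG the order was the other way, 0.17 (25 of 34 above 0) with a counterpart and 0.24 (23 of 24 above 0) without, beside 65.4% of all genes above 0. Over all members the spread was like that of other genes: the median range over the 8 arrays was 1.20, and 1.14 over all genes tested.

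Genes that act with the mitochondrial ribosome did not all take the same side. Against C57BL/6, all genes tested had a median of 0.18 in KDM1A TG (64.9% above 0, 0.725% called) and 0.038 in nonTG (53.2% above 0, 0.131% called). Genes for oxidative phosphorylation subunits, whose mitochondrially encoded partners this ribosome makes, had medians of 0.53 in KDM1A TG (60 of 63 above 0, 1 called, the ATP synthase gene Atp5d) and 0.49 in nonTG, each against C57BL/6. Cytosolic ribosomal protein genes had 0.36 (43 of 52 above 0, 0 called) and 0.27. Translation factors of mitochondria had 0.36 (12 of 12 above 0) and 0.40 (7 of 12). None of the 12 was called. Tufm, the elongation factor that brings tRNA to the ribosome, read 4.19, 5.07 and 5.08 in C57BL/6, 5.92, 5.24 and 5.45 in KDM1A TG, and 4.94 and 5.62 in nonTG (KDM1A TG against C57BL/6 0.76, adjusted p = 0.289). Oxa1l, which inserts new chains into the inner membrane, differed by 0.66 (adjusted p = 0.352).

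Assembly factors and regulators had lower medians than the ribosomal proteins in the embryos of nonTG sires. The 15 assembly and ribosomal RNA factors had a median of 0.28 in KDM1A TG (12 above 0) and -0.23 in nonTG (4 above 0), each against C57BL/6. C1qbp, a matrix protein needed for mitochondrial translation, differed by 0.66 in KDM1A TG (adjusted p = 0.340), and Noa1, a GTPase of small-subunit assembly, by -0.63 in nonTG (adjusted p = 0.675). The 11 genes of mitochondrial transcription and its nuclear regulators had medians of -0.0080 (5 above 0) and -0.30 (1 above 0). Esrra, a nuclear receptor that acts on genes of mitochondrial proteins, read 4.66, 4.78 and 4.96 in C57BL/6, 4.28, 3.93 and 4.24 in KDM1A TG, and 4.38 and 3.37 in nonTG. Every KDM1A TG and nonTG array was below every C57BL/6 array (differences -0.65 and -0.92, adjusted p = 0.356 and 0.419). The 10 mitochondrial aminoacyl-tRNA synthetases had medians of 0.044 and -0.13. Lrpprc, which stabilises mitochondrial messenger RNA, read 2.08, 2.41 and 2.13 in C57BL/6, 2.60, 2.53 and 2.56 in KDM1A TG, and 3.37 and 3.14 in nonTG (nonTG against C57BL/6 1.04, adjusted p = 0.313). Mtrf1, a release factor, differed by 1.05 between nonTG and C57BL/6 (adjusted p = 0.330). No gene of the assembly, translation factor, synthetase or regulator lists was called in any comparison. Dap3 and Ptcd3, small-subunit proteins under other symbols, differed by 0.40 and -0.15 between KDM1A TG and C57BL/6.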

How the data were processed

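The 8 samples are arrays of pooled 2-cell embryos, grouped by sire from the labels. The table that the authors deposited holds 22961 probesets, and its values were taken as log2 intensities from their range (0.115 to 12.4). RMA, oligo, limma and R 3.1.0 are listed in the submitters' processing notes, with no role stated for any. Annotation gave 15745 probesets 1 symbol, 1320 several and 5896 none. Probesets with several symbols or none were left out, and 14876 of 14995 symbols matched a RefSeq gene. From these values limma 3.58.1 in R 4.3.3 fitted group means over all 8 arrays with eBayes (two-sided, Benjamini-Hochberg adjustment, no further scaling) for genes whose mean exceeded the 30th percentile. The code was tested on simulated data.

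The members and lists were chosen with earlier results of these data known. By rule, members were named when called, among the 5 smallest p-values on each side of a comparison, among the 5 widest or 5 narrowest ranges, in the stalk or tunnel exit lists, or when their symbol and structure disagree; other lists gave the 2 smallest p-values per comparison. Same-numbered arrays of different groups did not deviate together (correlations from -0.38 to 0.18), so replicate numbers were not used as pairs. Alternatives covered filter, scaling, variance model, array weights, probeset choice, subunit assignment, a replicate block and each array left out. Precision is limited by the number of arrays.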

Additional observations from a re-analysis of the deposited data

How the results depend on the processing

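All 3 counts of called members stayed at 0 under the alternatives except limma's array weights and arrays left out in turn. In KDM1A TG against C57BL/6 the weights called 19, beside 14.8% of all genes. Arrays left out in turn gave 0 to 2 in that comparison. The 2 came without C57BL/6 array 2, where 2.22% of all genes were called. The relative median ranged over the other scalings, filters, variance models, weights and probeset choices from 0.16 to 0.50 in KDM1A TG against C57BL/6, 0.16 to 0.24 in nonTG against C57BL/6 and -0.021 to 0.20 in KDM1A TG against nonTG, and over arrays left out in turn from 0.18 to 0.41, 0.11 to 0.32 and -0.093 to 0.15. With the replicate number as a block it was 0.31, 0.16 and 0.16, with 0 called in each comparison. Chosen after seeing the data were the oviduct marker covariate, the less bright Mrps16 probeset, and leaving out KDM1A TG arrays 1 and 3 together. In KDM1A TG against C57BL/6 the covariate gave a relative median of 0.10. Leaving out those arrays gave 0.15, with 48 of 58 above 0, beside 56.1% of all genes. The large minus small difference was -0.18 (C57BL/6), -0.085 (KDM1A TG) and -0.12 (nonTG) at the 50th percentile filter, which kept 56 members, 0.078 and 0.17 in C57BL/6 and nonTG with probesets averaged, and 0.22 in KDM1A TG by structure. Of 975 alternative values over 50 gene and comparison pairs, 937 kept direction and side, 19 passed the threshold and 19 turned sign. In KDM1A TG against C57BL/6 those turning were Mrps18c (0.095, array weights), Mrps7 (-0.017, cyclic loess), Mrps25 (-0.0082), Mrpl35 (-0.21) and Mrpl11 (-0.031) with the covariate, and Mrps14 (0.081), Mrpl37 (-0.081), Mrps25 (-0.13) and Mrpl35 (-0.027) without KDM1A TG arrays 1 and 3. With single arrays left out, Mrps18c ran from -0.31 to 0.046 and Mrpl35 from -0.073 to 0.89. In KDM1A TG against nonTG they were Mrps18c (0.080, probesets averaged), Mrpl39 (0.018, array weights) and Mrps14 (0.042, quantile normalization; 0.39 without KDM1A TG arrays 1 and 3), and with single arrays left out Mrpl39 ran from -0.45 to 0.21 and Mrps14 from -0.41 to 0.041. The cause of these turns was not tested. The scaling that the authors applied is known only by name, and signal near the filter limits Mrps14.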
